A study of Mus musculus with 67 samples.

Results

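The genes described here are 49 genes of DNA damage signalling and repair chosen by symbol. All 49 were found among the 26414 genes of the deposited expression table. They fall into 16 genes of base excision repair, 11 of nucleotide excision repair, 2 of mismatch repair, 13 of break repair and 7 of damage signalling. RNA was measured by SMART-seq2, a method that copies polyadenylated RNA of very few cells along its whole length, in 67 libraries of C57BL/6 mouse embryos made by in vitro fertilisation. In the light group (34 libraries) embryos had been exposed to high-intensity light at the 2-cell stage and were then cultured in the dark, and the control group (33 libraries) was kept from that exposure. According to the methods each library came from a cell of a dissociated embryo. The labels give each library a number and the word embryo, but do not say whether libraries share an embryo. The 2-cell stage gave 7 control and 6 light libraries, the 4-cell stage 6 and 8, the 8-cell stage 4 and 8, morulae 13 and 6, and blastocysts 3 and 6. No litter, mouse or batch is named, so p-values measure only the spread between these libraries, which may be partly technical, and fewer cells of a type cannot be told apart from less RNA per cell.

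Base excision repair removes small lesions such as oxidised or deaminated bases: a glycosylase cuts out the base, an endonuclease opens the strand, and a polymerase and a ligase close the gap. Nucleotide excision repair cuts out a longer stretch around bulky lesions such as those left by ultraviolet light, and mismatch repair corrects errors of replication. Breaks are rejoined end to end or copied from the sister chromatid, while the kinases Atm and Atr and the checkpoint kinases below them signal damage to the cell cycle. An early mouse embryo begins with RNA stored in the oocyte, most of which is removed around the 2-cell stage as the genome of the embryo itself is switched on.

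Values are the authors' deposited signal, in which the reads on a gene were scaled by a factor for each library and not by gene length. One read was worth between 0.266 and 3.89 (median 0.655), so a value of a few units rests on a few reads. Total reads lay between 836011 and 8551674 per library, of which 54.0% to 89.3% fell on the ribosomal RNA genes Gm42418 and CT010467.1. Since these genes hold most of the reads, every comparison was also run with a median-ratio scaling over all genes. That scaling moved the median log2 fold change of all genes, light against control, from 0.16 to 0.03 at the 8-cell stage, from 0.10 to 0.21 in morulae and from -0.64 to -0.09 in blastocysts, and from -0.45 to 0.06 between morula and blastocyst in light. A member was called when limma, fitted over all genes, gave a fold of at least 2 and a p under 0.05 after Benjamini-Hochberg adjustment. Fold changes are on the scale of log2(value + 1), which understates those of low genes. At the last 3 stages, Y-linked RNA of at least 10 CPM was found in 0 of 20 control and 10 of 20 light libraries. How many embryos stand behind the libraries of a group was not tested. The ratio of Gm42418 to CT010467.1 reads separated control from light at 3 stages, with 2.34 to 4.03 in control and 1.58 to 1.77 in light at the 2-cell stage, 2.01 to 2.34 and 1.52 to 1.71 at the 8-cell stage, and 2.34 to 4.14 and 1.49 to 1.67 in morulae. The part of this ratio in the results was not tested. Control 4-cell libraries 1 and 2 stood apart, with ratios of 4.55 and 4.35 and 10647 and 10883 genes detected against 12835 to 13370 in the other 4, and counts that rest on them are also given without both.

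**Figure D1:**
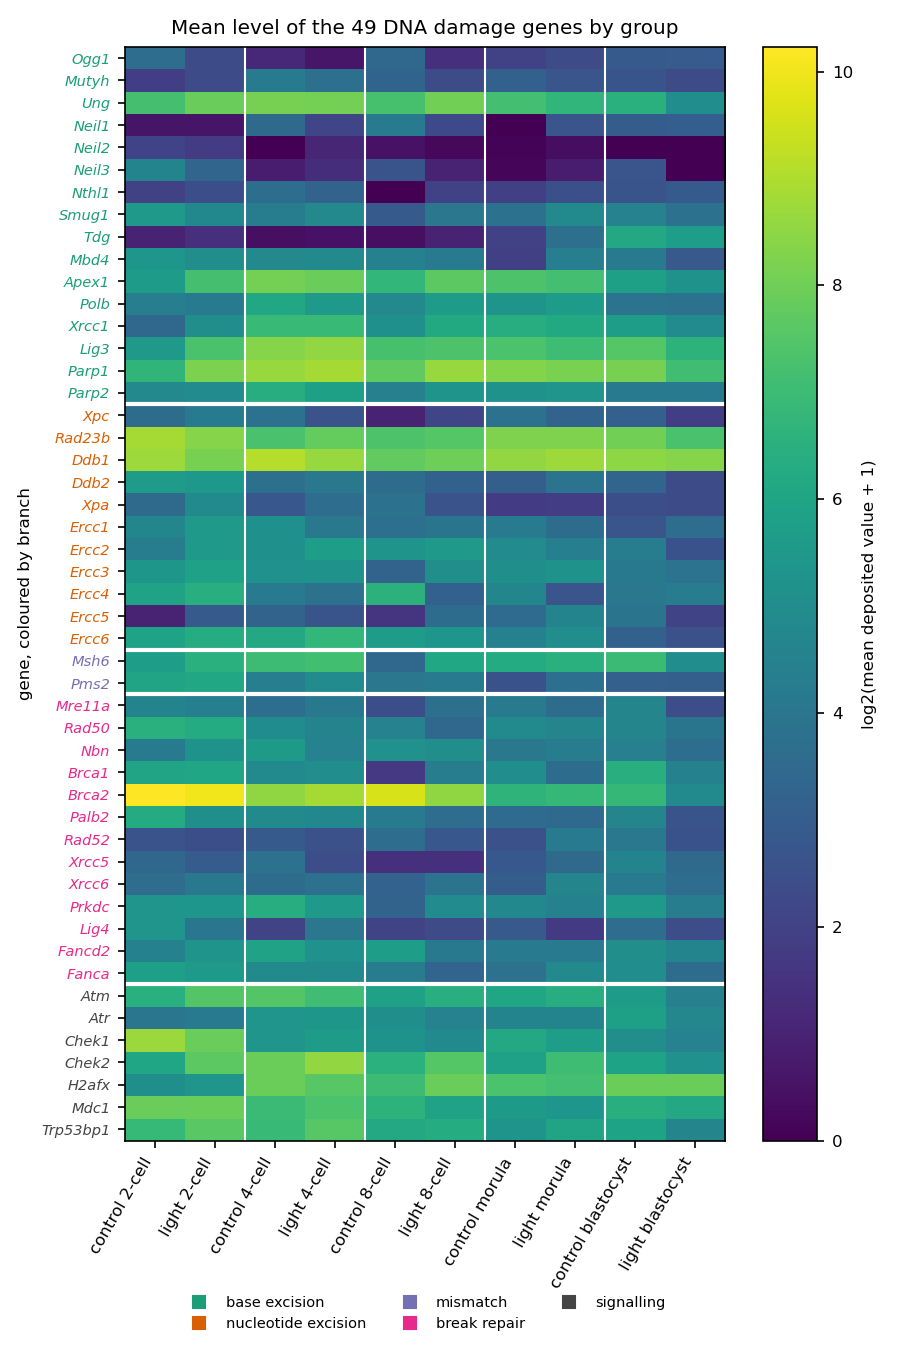
Mean deposited value of each of the 49 genes (rows, coloured by branch) in the 10 groups (columns), as log2(mean + 1). Brca2 at the 2-cell stage is the brightest row, with means of 1201 in control and 1024 in light, and Neil2 has means of at most 1.12 from the 4-cell stage on.

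Per kilobase of exon, the most abundant of the genes in control changed from stage to stage. At the 2-cell stage the highest mean levels per kilobase were those of Chek1 (88.4), a checkpoint kinase, Brca2 (88.0), which acts in break repair by copying, Rad23b (79.9), a partner of the lesion sensor Xpc, and Ddb1 (66.4), part of the ultraviolet damage sensor. At the 4-cell stage they were Apex1 (189), the endonuclease of base excision repair, and H2afx (177), the histone whose phosphorylation marks breaks. H2afx and Apex1 also led at the 8-cell stage (93.1 and 76.5) and in morulae (117 and 117). In blastocysts H2afx (174) was followed by Ddb1 (55.3) and Parp1 (53.1), the sensor of strand breaks. Merged exons of GENCODE M21 gave the lengths, and these levels were not tested against each other. Pip4p1 on the opposite strand overlaps 61.7% of the exon bases of Apex1. The counting is not stated to use strand, so reads of both genes cannot be told apart.

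In control embryos the change from the 2-cell to the 4-cell stage had the most calls, 21 of the 48 members tested, 10 rising and 11 falling. Of all 17725 genes tested, 46.1% were called, so the members as a whole moved about as often as other genes. Directions differed by branch. Base excision genes had a median log2 fold change of 1.81 against -0.72 over all genes, with 6 rising and 3 falling of 15 tested. Among break repair genes, 1 rose and 4 fell of 13 (median -1.10), and nucleotide excision genes had 0 rising and 2 falling of 11 (median 0.01). Signalling genes had 3 rising and 1 falling of 7. Without control 4-cell libraries 1 and 2 there were 23 calls, 15 rising and 8 falling. That fit called 7586 of all genes, against 8172 with all libraries.

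Within base excision repair 6 genes rose and 3 fell in control at that step. Xrcc1, the scaffold of the pathway, rose from a mean of 10.0 ± 10.5 (SD, n = 7) to 118 ± 97.5 (n = 6), a log2 fold change of 3.35 with a standard error of 0.70. Lig3, the ligase bound by Xrcc1, had values of 16.7 to 95.2 (median 40.1) at the 2-cell stage and of 184 to 525 (median 312) at the 4-cell stage. These ranges did not overlap, and the log2 fold change was 2.93 (limma adjusted p = 1.01e-05). Rffl, which overlaps 25.1% of the exon bases of Lig3, rose as well (1.89). Apex1 (2.70), Parp1 (1.96) and the glycosylases Mutyh (2.76), which removes adenine paired with oxidised guanine, and Neil1 (2.24) also rose. Pip4p1, which overlaps 61.7% of the exon bases of Apex1, was not called (1.11, limma adjusted p = 0.065). Neil3, a glycosylase of single-stranded DNA, fell by 3.12 on the log2 scale, Smug1, which removes uracil, by 2.75 and Ogg1, which removes oxidised guanine, by 2.21. Neil1 passed the filter on low values only through the 4-cell libraries and Neil3 only through the 2-cell libraries. Their calls are therefore descriptions. The call of Smug1 was lost without control 4-cell libraries 1 and 2 (-1.41), and Camk1, which overlaps 10.6% of the exon bases of Ogg1, fell too (-2.18). The branch thus split by gene, with glycosylases in both directions.

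In the other branches the same step moved these genes. Ercc4, the nuclease that cuts on the 5′ side of a lesion, fell by 2.69 and Rad23b by 1.59 on the log2 scale. Pms2, a mismatch repair endonuclease subunit, fell by 2.08, a call lost with a pseudocount of 0.1, no filter on low values or without control 4-cell libraries 1 and 2. Lig4, the ligase of end joining, fell by 3.35 and Rad50, part of the complex that holds broken ends, by 1.89, as did Brca2 by 1.80 and its partner Palb2 by 1.43. Fancd2, of crosslink repair, was the break repair gene that rose, by 1.65. Chek1 went from 225 to 749 (median 352) at the 2-cell stage to 8.52 to 83.7 (median 39.1) at the 4-cell stage, which did not overlap, and fell by 3.69 on the log2 scale. Its counterpart Chek2, activated by Atm, rose by 1.84, H2afx by 2.17 and Atm by 1.01. The histone shares 10.2% of its exon bases with Gm44335, which rose as well (3.31).

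The later steps in control had fewer calls. From the 4-cell to the 8-cell stage 4 of 47 members were called (6.31% of all genes), and all 4 fell, as did 5.17% of all genes. Without control 4-cell libraries 1 and 2 there were 12 calls, all falling. That fit called 1892 of all genes, against 847 with all libraries, and its median of all genes was -0.73. The 4 called with all libraries were Msh6, the mismatch sensor (-3.49), Brca1, the partner of Brca2 in copying from the sister chromatid (-3.35), Ddb1 (-1.31) and Atm. Atm went from a mean of 178 to 56.4. Brca1 had 2, 0, 6 and 0 reads in the 4 control 8-cell libraries. It passed the filter on low values only through the 4-cell libraries, so its call is a description. With all libraries the median of all genes was -0.56. With median-ratio scaling that median became 0.05 and the calls were 1 lower (Msh6, -2.74) and 2 higher (Ercc4, 3.88, and Brca2, 1.94). Of all genes 266 were called under that scaling. Of the 4 calls that of Msh6 therefore held under both scalings. Its 4 values at the 8-cell stage, 17.6, 3.73, 6.97 and 11.7, lay below all 6 at the 4-cell stage (26.4 to 202).

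From the 8-cell stage to the morula 6 of 48 members were called (14.3% of all genes), 2 rising and 4 falling. Brca1 rose by 3.46 and Msh6 by 2.42. With 2, 0, 6 and 0 reads at the 8-cell stage, Brca1 passed the filter on low values only through the morula libraries. Its call is therefore a description. The call of Msh6 was lost with a pseudocount of 0.1, without the filter and in 8 of 17 fits with a library left out. Brca2 fell by 3.00, from values of 932, 996, 598 and 560 to values between 37.8 and 192 (median 92.0) in 13 morula libraries. The glycosylases Mbd4 (-3.36), which acts on mismatches from deaminated methylcytosine, and Neil3 (-2.09) fell. Neil3 had 2 reads in control morula library 2 and no read in the other morula libraries. Neil1 had values of 22.2, 10.1, 5.80 and 33.8 at the 8-cell stage and no read in any of the 13 morula libraries. Both passed the filter on low values only through the 8-cell libraries, so their calls are descriptions. Median-ratio scaling, which moved the median of all genes from 0.04 to -0.13, gave 2 higher and 7 lower, the added ones being Ercc4, Xpa and Fancd2. It called 2458 of all genes, against 2145 on the deposited scale.

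From the morula to the blastocyst 5 of 48 members were called (11.9% of all genes), all in base excision repair, 4 rising and 1 falling. Tdg, the glycosylase that removes the oxidised forms of methylcytosine, rose by 4.91 with a standard error of 0.99. Its values were 0 in 7 of 13 morula libraries and at most 13.5 in the others, and 32.6, 98.8 and 80.9 in the 3 blastocyst libraries. Mbd4 (3.01) and Neil3 (2.60) rose, the call of Mbd4 being lost with a pseudocount of 0.1 or without any 1 of the blastocyst libraries. Neil1 was at 0 in all morula libraries and between 2.09 and 16.3 in those of blastocysts. Neil1 and Neil3 passed the filter only through the blastocyst libraries, so their calls are descriptions. Apex1 fell by 1.48, a call lost with median-ratio scaling, which left 4 higher and 0 lower and a median of all genes of 0.53 against 0.28. That scaling called 2268 of all genes, against 1775 on the deposited scale. Pip4p1, which overlaps Apex1, was not called (-0.75). Break repair genes had a median of 1.78 with 12 of 13 positive, of which limma called 0, with 2 at an unadjusted p under 0.05.

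At the 2-cell stage, the stage of exposure, 5 of 48 members were called between light and control (10.5% of all genes), and all 5 were higher in light, where 5.53% of all genes were called higher. They were Apex1, Lig3 and Parp1 of base excision repair and Chek2 and Atm of signalling. The 11 nucleotide excision, 2 mismatch and 13 break repair genes had no call by limma, with 3, 0 and 2 genes at an unadjusted p under 0.05 and medians of 0.45, 0.74 and -0.11 against 0.00 over all genes.

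Apex1 had values of 5.22 to 93.9 (median 45.5) in control and 66.1 to 191 (median 181) in light. The log2 fold change was 1.95 ± 0.54 (SE, limma adjusted p = 0.0161). On the opposite strand Pip4p1 overlaps 61.7% of the exon bases of Apex1 and was also called (1.25), and since the counting is not stated to use strand, reads of both genes cannot be told apart. Lig3 had values of 16.7 to 95.2 (median 40.1) in control and 38.4 to 223 (median 173) in light, with a log2 fold change of 1.72 ± 0.46 (SE, limma adjusted p = 0.0129). Rffl overlaps 25.1% of its exon bases and was not called (0.44). Parp1 had values of 38.9 to 170 (median 120) in control and 105 to 518 (median 250) in light, with a log2 fold change of 1.46 ± 0.39 (SE, limma adjusted p = 0.0128). For these genes the upper control libraries overlapped the lower light libraries.

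Chek2 had values of 26.0 to 120 (median 62.5) in control and 75.1 to 324 (median 207) in light, and its log2 fold change was 1.60 ± 0.41 (SE, limma adjusted p = 0.0107). Atm had values of 35.3 to 115 (median 98.9) in control and 124 to 251 (median 164) in light. Atm was the member whose groups did not overlap, 1 of 48 against 4.15% of all genes, yet its call was the closest to the threshold (log2 fold change 1.06 ± 0.35, limma adjusted p = 0.0487) and was lost in 9 of 13 fits with a library left out. The other 4 kept their calls in all 13.

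Summed over the 16 genes, base excision RNA lay between 457 and 579 in the control libraries and between 575 and 1379 in light. The sums touched only at the light library with the lowest value. They include the called Apex1, Lig3 and Parp1, so they are no support beyond those calls. The median log2 fold change of the branch was 0.43, with 10 of 15 positive. Sums of break repair genes overlapped (1254 to 2231 in control, 1072 to 1613 in light), and Brca2 alone had a mean of 1201 in control. All 5 genes also rose from the 2-cell to the 4-cell stage in control, by 2.70 (Apex1), 2.93 (Lig3), 1.96 (Parp1), 1.84 (Chek2) and 1.01 (Atm). Both comparisons use the same control 2-cell libraries. Their means in light 2-cell embryos lay below or, for Atm, near those of control 4-cell embryos: 147 and 269 for Apex1, 154 and 328 for Lig3, 299 and 402 for Parp1, 202 and 243 for Chek2, and 180 and 178 for Atm.

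Oocyte markers moved with these genes. Their sum over 10 genes was 3023 to 5787 in control and 1093 to 2677 in light 2-cell libraries, which did not overlap, and Bmp15 (-2.19), Oosp1 (-1.62) and Nlrp5 (-1.10) were called lower. None of the 10 was at 0 in every library of either group. The sum of 13 markers of the 2-cell stage overlapped between the groups (546 to 1682 and 608 to 2873), and 1 of them, Eif1a, was called higher (1.81). Of 6 cumulus cell markers tested 1 was called, Tnfaip6, higher in light (2.65), with 3 at an unadjusted p under 0.05 and sums of 51.7 to 255 in control and 153 to 385 in light. Their part in the results on the repair genes was not tested.

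The stretches of 250 bases before the start of the 5 genes are shown because they rose together. They are from RefSeq (GRCm38.p6), read 5′ to 3′ on the strand of the gene, with motif matches in capitals.
Apex1: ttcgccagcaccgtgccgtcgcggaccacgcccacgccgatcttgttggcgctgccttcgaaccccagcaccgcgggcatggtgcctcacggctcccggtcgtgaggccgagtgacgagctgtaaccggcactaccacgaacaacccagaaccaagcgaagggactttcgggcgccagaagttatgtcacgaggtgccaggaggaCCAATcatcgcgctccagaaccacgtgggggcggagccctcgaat
Atm: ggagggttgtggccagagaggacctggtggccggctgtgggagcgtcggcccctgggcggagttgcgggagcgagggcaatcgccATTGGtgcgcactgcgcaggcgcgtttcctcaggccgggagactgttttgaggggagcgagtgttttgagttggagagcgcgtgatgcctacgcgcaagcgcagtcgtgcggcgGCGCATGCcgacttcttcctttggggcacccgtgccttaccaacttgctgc
Chek2: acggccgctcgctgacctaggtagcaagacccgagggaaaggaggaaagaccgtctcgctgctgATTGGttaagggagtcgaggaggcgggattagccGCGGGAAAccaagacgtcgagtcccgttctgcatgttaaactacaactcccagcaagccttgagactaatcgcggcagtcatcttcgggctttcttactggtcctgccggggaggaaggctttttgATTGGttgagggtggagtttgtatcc
Lig3: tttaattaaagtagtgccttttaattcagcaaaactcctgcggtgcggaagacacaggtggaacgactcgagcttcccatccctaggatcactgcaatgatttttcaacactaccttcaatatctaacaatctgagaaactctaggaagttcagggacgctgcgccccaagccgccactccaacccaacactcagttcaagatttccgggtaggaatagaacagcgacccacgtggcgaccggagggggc
Parp1: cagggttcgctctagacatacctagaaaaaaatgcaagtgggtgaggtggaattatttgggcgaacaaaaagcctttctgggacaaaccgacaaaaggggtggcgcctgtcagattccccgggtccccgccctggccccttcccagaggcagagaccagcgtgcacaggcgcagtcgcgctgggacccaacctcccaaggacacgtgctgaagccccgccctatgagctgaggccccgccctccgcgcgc
The windows lie at chr14:50924699-50924948 (plus strand) for Apex1, chr9:53536672-53536921 (minus) for Atm, chr5:110839733-110839982 (plus) for Chek2, chr11:82780859-82781108 (plus) for Lig3 and chr1:180568641-180568890 (plus) for Parp1. Searched on both strands were an E2F site as TTTGGCGC, TTTCCCGC, TTTGCCGC or TTTCGCGC, an NRF1 site as GCATGCGC, the CCAAT box as CCAAT, the TATA box as TATAAA and a CREB site as TGACGTCA. CCAAT was found in Apex1, Atm and Chek2, the NRF1 word in Atm and an E2F word in Chek2, while Lig3 and Parp1 held none of these words. Among the 39 members with an entry, CCAAT stood in 56.4% against 34.2% of all 27025 promoters, the E2F words in 12.8% against 1.96%, NRF1 in 7.69% against 2.30%, CREB in 5.13% against 1.56% and TATA in 5.13% against 12.9%. These shares are descriptions of letters in a window and were not tested.

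**Figure D2:**
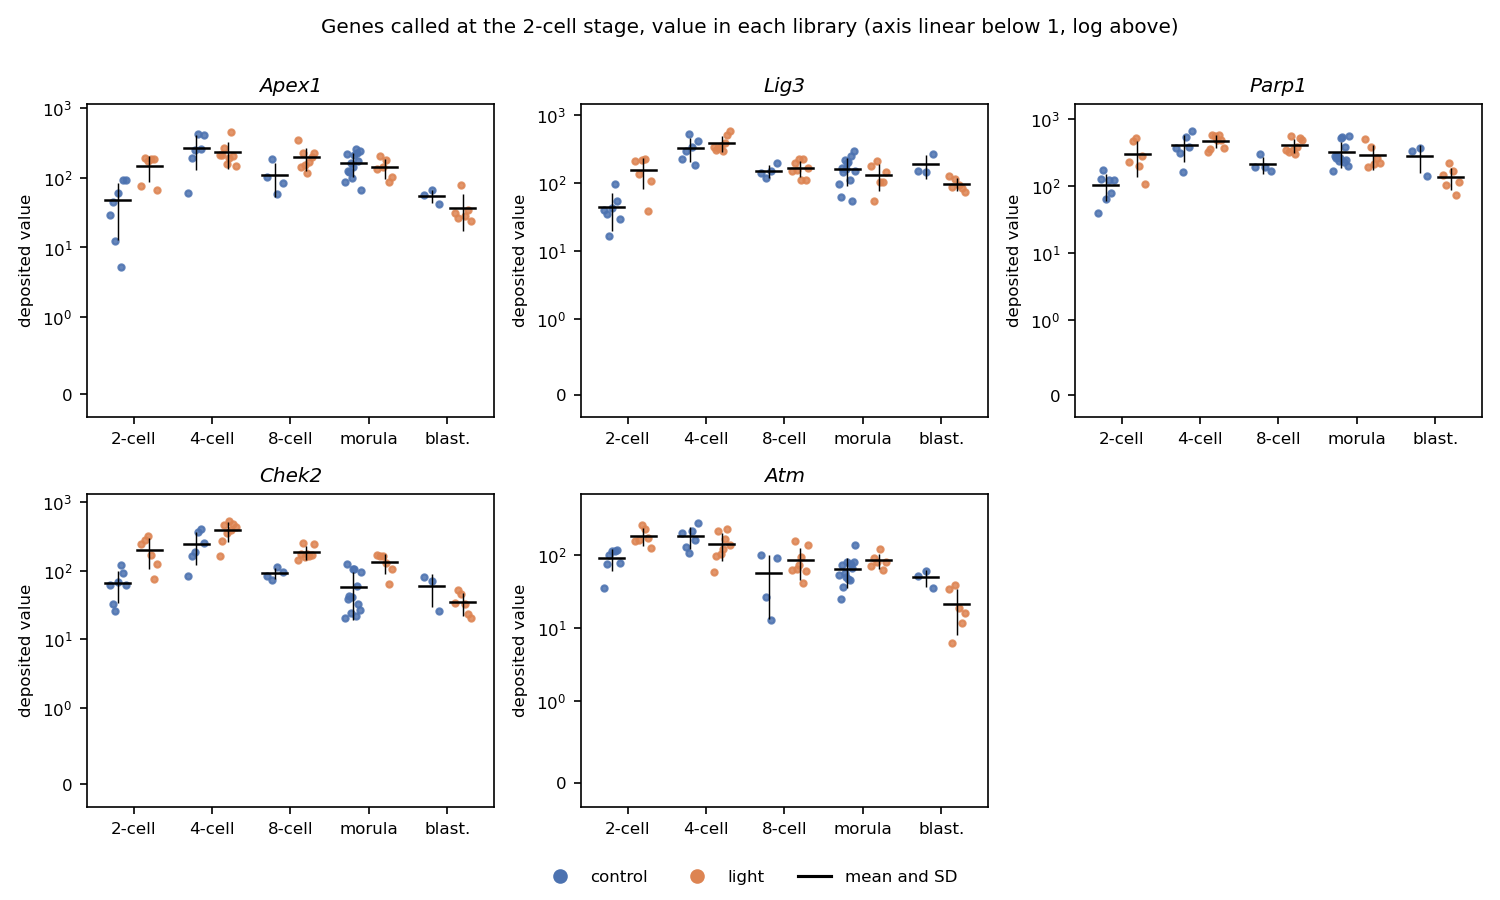
Deposited value of Apex1, Lig3, Parp1, Chek2 and Atm in each library (points) by stage and group, with the mean and SD of each group (black). The axis is linear below 1 and logarithmic above. At the 2-cell stage light libraries lie above most control libraries for each gene, and the control values rise towards the 4-cell stage.

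At the 4-cell stage 0 of 47 members were called by limma (1.45% of all genes), and edgeR and DESeq2 on the recovered reads also called 0. At an unadjusted p under 0.05 there were 3, 5 and 7 by these tools. No member was without overlap between the groups, against 0.56% of all genes. The median log2 fold change of the members was 0.23 against 0.13 over all genes, and -0.37 against -0.07 without control 4-cell libraries 1 and 2, where limma also called 0, with 6 at an unadjusted p under 0.05. The 5 genes that were higher in light at the 2-cell stage had log2 fold changes here of -0.05 (Apex1), 0.29 (Lig3), 0.27 (Parp1), 0.74 (Chek2) and -0.43 (Atm). Lig3 had values of 184 to 525 in control and 295 to 571 in light, so that both groups stood in the same range.

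At the 8-cell stage 5 of 47 members were called (9.21% of all genes), 3 higher and 2 lower in light, and 5 members did not overlap between the groups (5.61% of all genes). Both mismatch repair and nucleotide excision repair held calls, with 1 in break repair, 1 in signalling and 0 of 14 in base excision repair, where 8 had an unadjusted p under 0.05 in limma. With median-ratio scaling there were 2 higher and 3 lower, since Chek2 dropped below the fold threshold and Fancd2 was called lower (-2.21). Of all genes, 1275 were called with that scaling and 1276 without it.

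Msh6 had the smallest p of all members at any stage between light and control. Its control values were 17.6, 3.73, 6.97 and 11.7, and its light values were 47.5 to 93.3 (median 67.7). Every light library lay above every control library, with a log2 fold change of 2.78 ± 0.43 (SE, limma adjusted p = 0.000254), or 2.63 above the median of all genes. The control mean was 129 in 4-cell embryos, 9.99 in 8-cell embryos and 77.1 in morulae, so the contrast shares its 4 control libraries with the fall and the later rise of Msh6 in control. In light the means were 140, 67.4 and 89.0, and neither step was called. The other mismatch gene, Pms2, had values of 0.532 to 34.2 (median 14.0) in control and 0.387 to 83.7 (median 8.70) in light, and was not called (-0.34).

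Ercc4 stood the other way. Its control values were 30.5, 181, 89.4 and 73.0, and its light values were 0 to 27.5 (median 8.76). The groups did not overlap and the log2 fold change was -3.86 ± 0.83 (SE, limma adjusted p = 0.00409), or -4.01 relative to the median of all genes. The control 8-cell mean of Ercc4, 93.5, was the highest of the 10 groups, so the contrast rests on high values in these 4 control libraries. In light the step from the 4-cell to the 8-cell stage was not called for Ercc4. Ercc1, which forms the nuclease with Ercc4, had means of 12.4 ± 4.54 in control and 14.9 ± 7.89 in light. Ercc3, a helicase that opens DNA at the lesion and in transcription, had control values of 5.55, 13.3, 4.64 and 10.4 and light values of 14.9 to 58.8 (median 34.3). It was called higher, 1.78 ± 0.52 (SE, limma adjusted p = 0.0316), but not by edgeR or in 1 fit over all libraries. The call was also lost in 6 of 12 fits with a library left out.

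Chek2 had control values of 83.3, 74.0, 113 and 95.1 and light values of 142 to 249 (median 171), which did not overlap. Its log2 fold change of 1.00 ± 0.26 (SE, limma adjusted p = 0.0163) lay at the fold threshold and was 0.84 above the median of all genes. The call was lost in 5 of 7 alternatives and in 4 of 12 fits with a library left out. Brca2 had control values of 932, 996, 598 and 560 and light values of 137 to 612 (median 353), and was lower in light by limma (-1.19 ± 0.34, adjusted p = 0.0281) although the groups overlapped. Ung, the uracil glycosylase, did not overlap either, with control values of 173, 130, 111 and 194 and light values of 204 to 334 (median 262), but its log2 fold change of 0.81 was under the fold threshold. Summed base excision values lay between 623 and 848 in control and between 1008 and 1455 in light, without overlap. The median log2 fold change of that branch was 0.73 against 0.16 over all genes, with 9 of 14 positive and 0 called. Its sums include Ung and rest mostly on the abundant genes, so they are no separate support. Summed break repair values lay between 737 and 1234 in control and 331 and 730 in light. Brca2 alone made up most of each control sum. The median of the break repair genes was -0.20, with 6 of 13 positive, so the sums do not speak for the branch.

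Markers of later cell types moved at this stage as well. Of 13 trophectoderm markers tested 5 were called higher in light, with sums of 80.1 to 216 in control and 219 to 884 in light, and 2 of 8 inner cell mass markers (sums of 225 to 342 and 176 to 1071). In control 5 trophectoderm markers had no read in any library, against 2 in light. Oocyte marker sums were 130 to 247 in control and 43.7 to 139 in light. Of 9 markers of the 2-cell stage 3 were called, Zfp352 (-5.19) and Obox3 (-2.28) lower and Eif1a (1.68) higher, and of 5 primitive endoderm markers Gata6 (3.83) and Dab2 (4.80), the latter also listed for trophectoderm, were higher. Their part in the results on the repair genes was not tested.

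**Figure D3:**
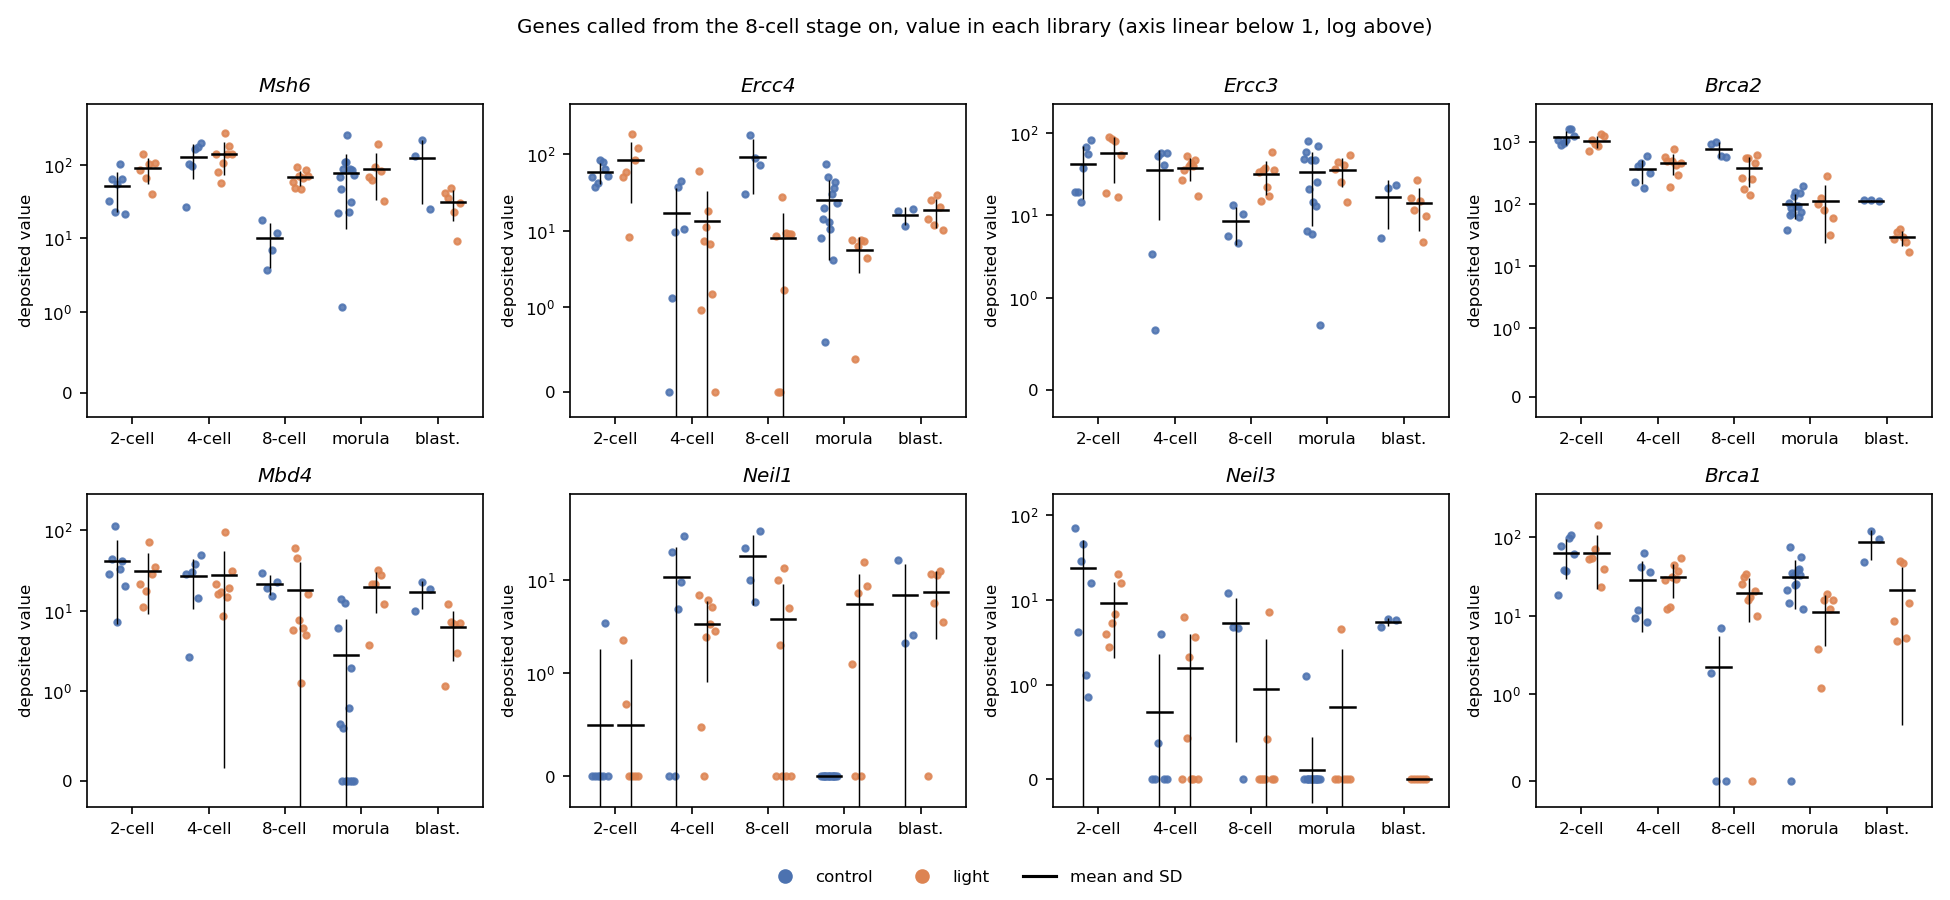
Deposited value in each library (points) of the genes called from the 8-cell stage on, by stage and group, with the mean and SD (black). The axis is linear below 1 and logarithmic above. Msh6 and Ercc4 do not overlap between control and light at the 8-cell stage, in opposite directions, and Brca2 and Neil3 do not overlap in blastocysts.

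In morulae 2 of 47 members were called (1.18% of all genes), both higher in light, as were 0.355% of all genes, and both glycosylases. No member was without overlap (0.552% of all genes). Mbd4 had values of 0 to 14.0 (median 0.588) in 13 control libraries, 6 of them at 0, and of 3.79 to 31.7 (median 21.3) in 6 light libraries. Its log2 fold change was 3.04 ± 0.74 (SE, limma adjusted p = 0.0321). Neil1 had no read in any control library and values of 0 to 15.7 (median 4.28) in light, 2 of them at 0. Against a floor of 3 reads over the control group its mean in light was at least 32.9-fold higher. It passed the filter on low values only through 4 light libraries, so its call is a description and no support. Both calls were lost when 1 of several libraries was left out, that of Mbd4 in 8 and that of Neil1 in 4 of 19 fits, and DESeq2 called neither. The call of Mbd4 was also lost with edgeR, a pseudocount of 0.1 and a block for the replicate number. That of Neil1 was also lost in 1 fit over all libraries and with the block. The direct comparison for Chek2, 57.0 ± 37.6 in control and 133 ± 42.0 in light, was called by edgeR, DESeq2 and median-ratio scaling but not by limma on the deposited scale. Of 9 inner cell mass markers Nanog was called, lower in light (-3.04). limma called 0 of 15 trophectoderm markers, with 4 at an unadjusted p under 0.05 and sums of 247 to 4281 in control and 1310 to 3695 in light, and 0 of 6 primitive endoderm markers, also with 4. Their part in the results on the repair genes was not tested.

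In blastocysts 3 of 48 members were called (5.34% of all genes), all lower in light, where 4.98% of all genes were called lower. The comparison rests on 3 control libraries. The median of the members was -0.85 against -0.64 over all genes, so much of the shift was shared with all genes on the deposited scale. Break repair genes had a median of -1.43, and 0 of 13 were positive, with 2 called. Nucleotide excision genes had a median of -0.58.

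Neil3 had values of 4.73, 5.91 and 5.78 in control and no read in any of the 6 light libraries. Against a floor of 3 reads over the light group it was at least 27.3-fold lower in light. Neil3 passed the filter only through the 3 control libraries, so its call is a description and no support. Brca2 had values of 115, 114 and 109 in control and 17.0 to 39.9 (median 28.6) in light, without overlap, a log2 fold change of -1.98 ± 0.44 (SE, limma adjusted p = 0.0152). Relative to the median of all genes it was -1.34, and with median-ratio scaling the adjusted p was 0.058. Brca1 had values of 47.9, 119 and 95.7 in control and 4.73 to 49.2 (median 11.5) in light (-2.45, limma adjusted p = 0.039), and the call was lost in all 7 alternatives. Without the second control library, 0 members were called.

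Another 4 members did not overlap and were not called, making 6 of 48. That share equals the 12.5% of all genes, so the values below are descriptions and no result about these members. Nbn, which with Mre11a and Rad50 binds broken ends, had values of 20.0, 20.9 and 21.2 in control and 2.21 to 14.9 in light. Trp53bp1, which steers breaks to end joining, had values of 78.9, 61.9 and 40.5 in control and 1.55 to 35.1 in light. Lig3 (143 to 266 in control, 74.0 to 125 in light) and the helicase Ercc2 (14.2 to 22.5 and 2.14 to 7.88) were alike. H2afx had means of 241 ± 9.40 in control and 245 ± 68.5 in light, and Ddb1 of 354 ± 142 and 332 ± 79.3.

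Inner cell mass markers moved with the group in blastocysts. Of 10 tested 7 were called lower in light, and their sums were 350 to 2391 in control and 197 to 370 in light, with 0 markers at 0 in every library. Of 8 primitive endoderm markers 2 were called, Lama1 (-4.45) and Pdgfra (-3.76), both lower in light, with 5 at an unadjusted p under 0.05. Their median was -2.10 against -0.64 over all genes, and their sums overlapped (281 to 903 in control, 291 to 453 in light). Of 17 trophectoderm markers limma called 0, with 5 at an unadjusted p under 0.05 (sums of 938 to 10361 and 4116 to 11107). Their part in the results on the repair genes was not tested.

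**Figure D4:**
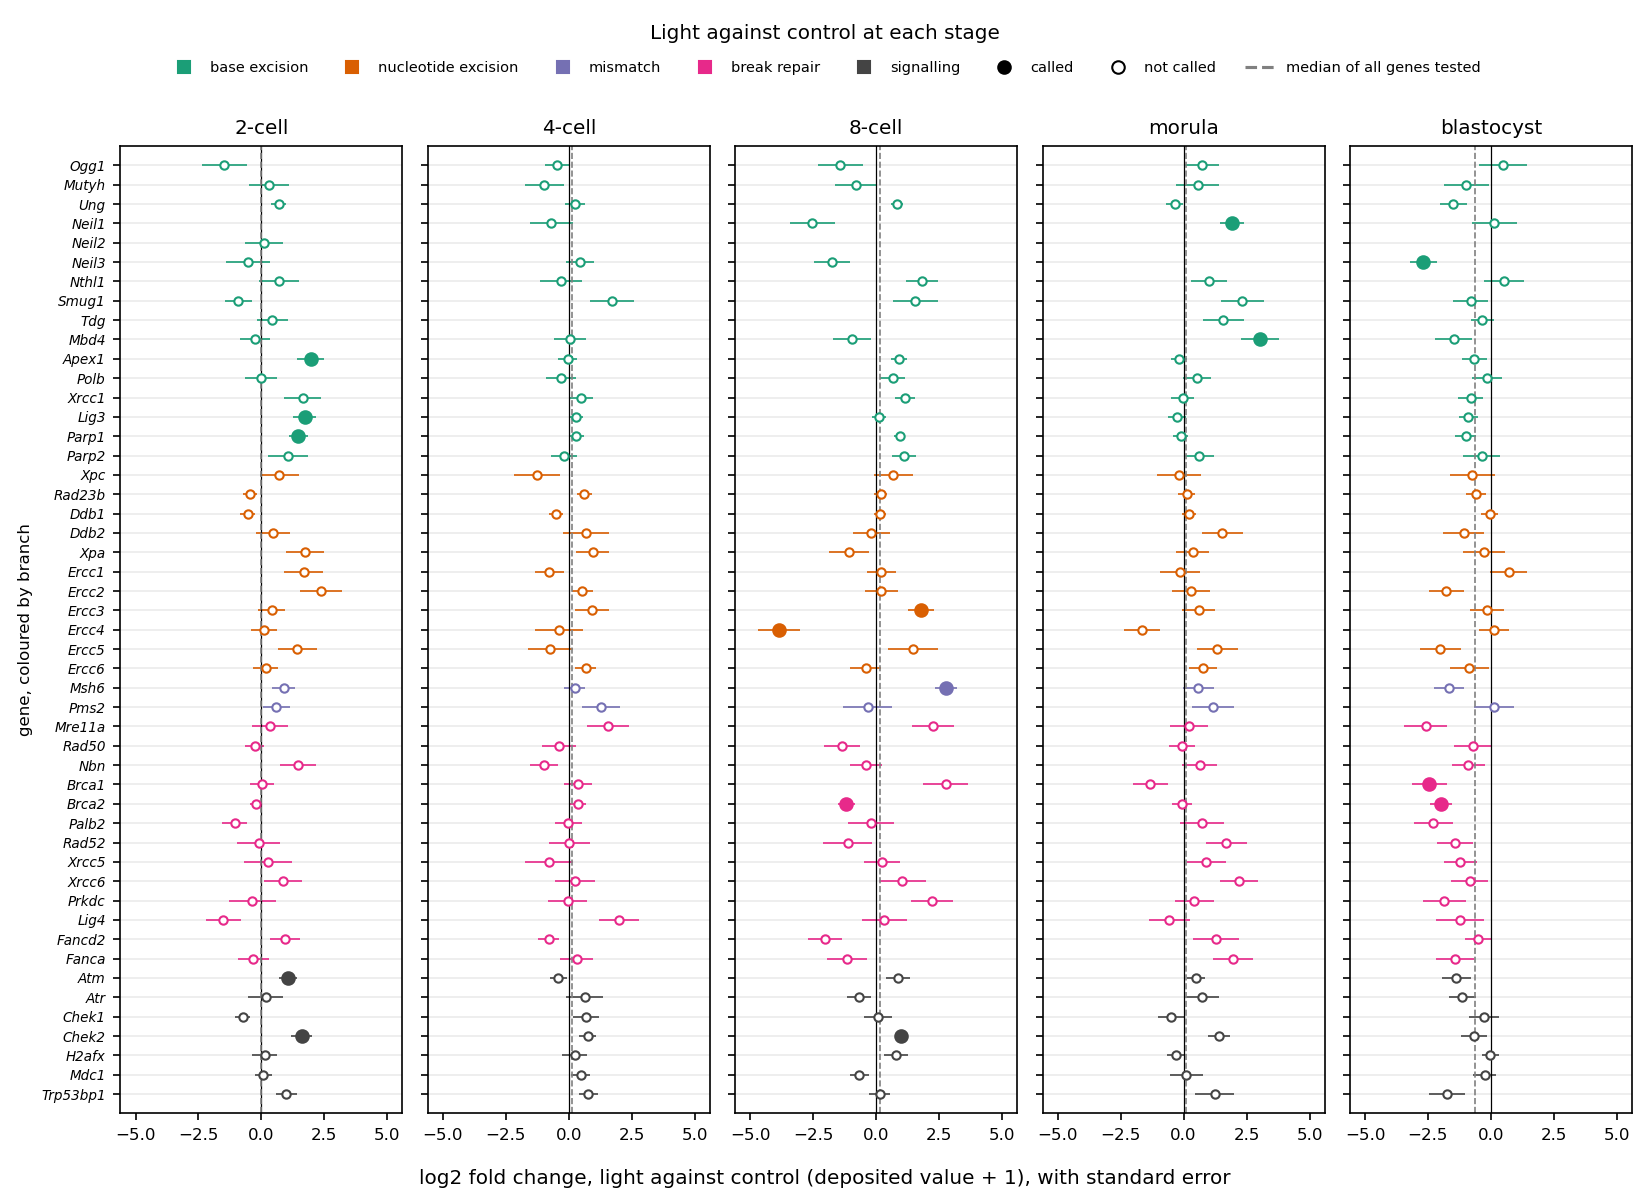
Log2 fold change of light against control for each gene tested, with its standard error, in 5 panels by stage. Filled points are called, the dashed line is the median of all genes tested. At the 2-cell stage the 5 filled points lie to the right, at the 4-cell stage there are 0, and in blastocysts 42 of 48 points lie left of 0.

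In light embryos 13 of 49 members were called from the 2-cell to the 4-cell stage (36.5% of all genes), 4 rising and 9 falling, and with median-ratio scaling 11 rising and 4 falling, while that scaling moved the median of all genes from -0.56 to -0.30. Of all genes, 6080 were called with that scaling and 6293 without it. Under both scalings H2afx (2.27), Xrcc1 (2.21), Lig3 (1.48) and Neil1 (1.44) rose, and Ercc4 (-3.18), Chek1 (-2.26), Neil3 (-2.14) and Rad50 (-2.01) fell. Neil1 passed the filter on low values only through the 4-cell libraries, so its call is a description. Over the 48 members tested in both groups, the change in light and that in control had the same sign in 39 (81.3%), as had 81.7% of all genes. Of the calls, 10 were shared, all with the same sign, 47.6% of those in control and 76.9% of those in light. These comparisons share no library.

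The difference between both changes was tested with an interaction term, and 1 of 49 members was called (3.07% of all genes). Lig4 had values of 5.22 to 86.2 (median 33.4) in control and 3.30 to 40.2 (median 11.9) in light at the 2-cell stage, and of 0 to 7.86 (median 3.57) and 0.964 to 31.1 (median 13.9) at the 4-cell stage. Its change was 3.49 ± 1.01 higher in light (SE, limma adjusted p = 0.0468), a call lost in 22 of 27 fits with a library left out. Without control 4-cell libraries 1 and 2 there were 2 calls, with 811 of all genes called against 627. edgeR called Lig3 in place of Lig4, with a smaller rise in light. Apex1, Parp1, Chek2 and Atm, which differed between the groups at the 2-cell stage, were not called.

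**Figure D5:**
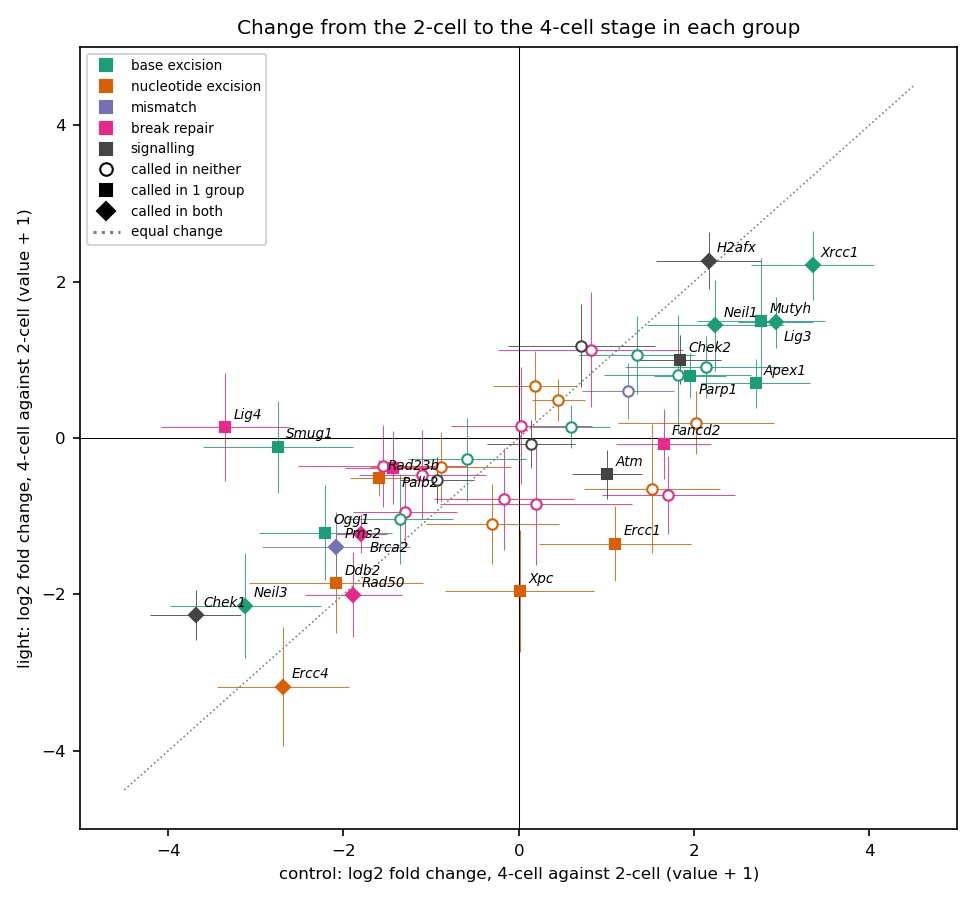
Log2 fold change from the 2-cell to the 4-cell stage in control (horizontal axis) and light (vertical axis) for the 48 genes tested in both, with standard errors. Squares are called in 1 group and diamonds in both, and the dotted line marks equal change. Lig4 lies at -3.35 in control and near 0 in light, and Lig3, Apex1 and Parp1 lie below the line.

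The later steps in light had 5 calls of 48 from the 4-cell to the 8-cell stage (10.6% of all genes), all falling, as did 9.94% of all genes: Lig3, Fanca of crosslink repair, Trp53bp1, Ercc6 of transcription-coupled repair, and Mdc1, which binds phosphorylated H2afx. Median-ratio scaling called 0, with 9 at an unadjusted p under 0.05, and moved the median of all genes from -0.45 to -0.03. Of all genes that scaling called 378, against 1602 on the deposited scale. From the 8-cell stage to the morula 4 of 47 were called (11.8% of all genes), Fanca (1.99) and the end-binding subunit Xrcc5 (2.14) rising and Ung (-1.33) and Brca2 (-1.86) falling, under both scalings. From the morula to the blastocyst 17 of 47 were called (20.7% of all genes), 2 rising and 15 falling, and with median-ratio scaling 4 rising and 5 falling. Of all genes, 2160 were called with that scaling and 2812 without it. Tdg (2.98) and Ercc4 (1.69) rose and Ercc6 (-2.60), Atm (-2.13), Apex1 (-1.96), Chek2 (-1.90) and Ung (-1.89) fell under both scalings. Pip4p1, which overlaps Apex1, was also called lower (-1.67). Tdg thus rose into the blastocyst in both groups, with means of 70.8 ± 34.2 in control and 51.3 ± 13.1 in light.

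The remaining members are given by range. Group means of the glycosylases Nthl1 and Neil2 stayed between 0 and 12.0, and Neil2 had no read in any library of control 4-cell embryos or of either blastocyst group. Polb, the gap-filling polymerase, had group means of 13.0 to 67.4 and Parp2 of 17.4 to 83.1. In nucleotide excision repair the lesion sensors Xpc and Ddb2, the scaffold Xpa and the nuclease Ercc5 had group means of 0.975 to 48.4. In break repair Mre11a, Rad52, Prkdc, which with Xrcc5 and Xrcc6 forms the end-joining kinase, and Xrcc6 had group means of 4.37 to 81.0. Atr, the kinase of stalled forks, had group means of 15.3 to 55.8. None of these was called between light and control at any stage.

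Other genes of the pathways were counted from lists that were chosen with earlier results of these data known. Of 95 other repair genes 12 of 93 tested (12.9%, against 10.5% of all genes) were called at the 2-cell stage, 8 higher and 4 lower, with Gtf2h1 (2.30) and Gtf2h2 (3.81), subunits of the factor that opens DNA in nucleotide excision repair and transcription, higher and Fancc of crosslink repair (-1.56) lower. At the 4-cell stage limma called 0 of 92, with 12 at an unadjusted p under 0.05. At the 8-cell stage there were 5 higher and 1 lower of 89 (6.74% against 9.21%), among them Gtf2h5 (1.37), the nuclease Exo1 (2.09) and the helicase Brip1 (3.07). In morulae limma called 0 of 92, with 11 at an unadjusted p under 0.05, and in blastocysts 7 of 90 (7.78% against 5.34%), all lower, among them Fancm (-2.04), Brcc3 (-2.28) and the kinase Wee1 (-1.97). Of 24 targets of p53, the transcription factor activated by damage signalling, 4 of 22 (18.2% against 10.5%) were called in 2-cell embryos, all higher, among them Ei24 (1.96), Sesn2 (1.15) and Pmaip1 (means of 6.99 ± 9.86 in control and 77.9 ± 95.4 in light). In 4-cell embryos 0 of 22 were called, with 2 at an unadjusted p under 0.05. At the 8-cell stage 6 of 22 (27.3% against 9.21%) were called, all higher, among them Aen (2.15), Eda2r (3.84) and Plk2 (3.49), and in morulae 3 of 23 (13.0% against 1.18%), with Pmaip1 (3.66) and Trp53inp1 (2.01) higher and Tigar (-1.16) lower. In blastocysts 0 of 22 were called, with 3 at an unadjusted p under 0.05. The median log2 fold change of the p53 targets was 1.14, 0.13, 1.13, 1.24 and -0.29 in stage order, against 0.00, 0.13, 0.16, 0.10 and -0.64 over all genes.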

How the data were processed

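RNA was measured by SMART-seq2 in 67 libraries. Per the labels and the authors' processing notes, reads were aligned with HISAT2 to mm9 and counted with HTSeq 0.9.1. The deposited values are a signal made by the authors, reads scaled by a factor for each library. They were described as RPKM in the methods, but no division by length was found, and once multiplied by that factor 99.95% or more of the values in any library lay within 0.01 of a whole read. The test planned for normalized values was kept.

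Members and lists were chosen with earlier results of these data known. limma 3.58.1 (trend) in R 4.3.3 was fitted to log2(value + 1) over all genes with a value above 1 in 3 or more of the libraries in the comparison, without covariates. Its standard errors and adjusted p-values are given. The methods name thresholds but no test. Named were every member called between light and control (up to 8 per stage), up to 2 rising and 2 falling members per branch for each step in control, members called in the interaction, and up to 3 called genes of the other repair genes and of the p53 targets per stage. Further members were named after their values were seen, for steps in light and for groups without overlap.

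Alternatives were a pseudocount of 0.1, no filter, median-ratio scaling, CPM outside ribosomal RNA, 1 fit over all libraries, edgeR 4.0.16 and DESeq2 1.42.0 on recovered reads, a block for the replicate number, and leaving out libraries in turn. For genes named in steps between stages and in the interaction they were added after the data were seen, as was leaving out control 4-cell libraries 1 and 2 together. Steps between stages were run only with the pseudocount, no filter, median-ratio scaling and libraries left out. The interaction also had edgeR and the block. The tests were run on simulated data. Exon lengths and overlaps came from GENCODE M21 (GRCm38), and promoters from RefSeq (39 of 49 members had an entry).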

Additional observations from a re-analysis of the deposited data

Results flagged for a closer look

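The value of Ercc4 in light 8-cell library 8, 27.5, stood apart from the other 7 light libraries, the nearest of which was at 9.30, with a gap that took 0.662 of the range of the group. Of 24 groups of named genes tested for such a gap 1 was found, and chance gives about 1 in 20. The library still lay below the lowest control value, 30.5. The change of Lig4 from the 2-cell to the 4-cell stage differed between light and control by 3.49 on the log2 scale (interaction term in limma, adjusted p = 0.0468).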

How the results depend on the processing

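Of the 15 gene results between light and control, 2 (Msh6 and Ercc4 at the 8-cell stage) kept their call in every alternative and with each library left out, as did 17 of 26 for steps between stages and the interaction, and 0 of either changed direction. In light against control, edgeR gave 3 calls at the 8-cell stage and 0 in blastocysts (5 at an unadjusted p under 0.05), DESeq2 gave 1 in morulae and 1 in blastocysts, a pseudocount of 0.1 gave 1 in morulae, and CPM outside ribosomal RNA and median-ratio scaling each gave 1 in blastocysts. Over all genes, limma called 680 in blastocysts and the alternatives as few as 151 (edgeR), with 287 under median-ratio scaling. It called 218 at the 4-cell stage against 53 without a filter and 754 by DESeq2, and 179 in morulae against 761 in 1 fit over all libraries. For the 4-cell to 8-cell step it called 847 in control and 1602 in light, against 266 and 378 with median-ratio scaling, for the first of these 1892 without control 4-cell libraries 1 and 2, and for the interaction 627 against 407 with a pseudocount of 0.1 and 1094 by edgeR. Between stages, no filter gave 2 from the 4-cell to the 8-cell stage in control, and in light median-ratio scaling gave 0 at that step and 9 from morula to blastocyst. Leaving out control 4-cell libraries 1 and 2 together, chosen after seeing the data, gave 12 calls for the 4-cell to 8-cell step in control and 2 in the interaction. The interaction had 2 calls with median-ratio scaling and 0 without a filter or with a pseudocount of 0.1, each with 11 at an unadjusted p under 0.05. With a library left out, counts ranged from 3 to 7 at the 8-cell stage (3 without light library 12), from 0 to 2 in morulae (lower in 8 of 19 fits) and from 0 to 3 in blastocysts (0 without control library 2). Counts for the 4-cell to 8-cell step in control ranged from 1 to 8 (outside 1.5 times without control 4-cell libraries 1 and 6 or 8-cell libraries 2 and 3). For morula to blastocyst in control they ranged from 2 to 5 (low without any of the 3 blastocyst libraries). In light they ranged from 4 to 8 for the 4-cell to 8-cell step (high without 4-cell library 5 or 8-cell library 7). For morula to blastocyst in light they ranged from 10 to 17 (10 without blastocyst library 26), and for the interaction from 0 to 1 (0 in 20 of 27 fits). Neil3 in blastocysts could not be tested without any 1 control library, since it then failed the filter. The cause of these changes was not tested.

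Replicate numbers shared by light and control did not pair the libraries: deviations from the group means of same-numbered libraries correlated between -0.087 and 0.069. With the replicate block, which leaves 3 pairs at the 2-cell and 4-cell stages and 4 in morulae, 0 members were called at the 2-cell stage, the 4-cell stage, in morulae and in the interaction, as were 0 of all genes, with 9, 3, 4 and 11 members at an unadjusted p under 0.05. The 8-cell and blastocyst groups share no numbers, so that the block could not be fitted there.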
